A study of Bos taurus with 14 samples.

Results

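The transcripts JCHAIN, CD40, SPIB, XBP1 and CD79A, for which B cells and plasma cells are known, were followed in blood neutrophils and in liver of Holstein cattle. These are 5 of the 6723 genes that could be named on the array. Earlier results of the neutrophil day 7 minus day 0 contrast and of the neutrophil and liver levels chose them, so those values are given below as a description without a test. The change in liver between the days played no part in the choice and was tested.

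The neutrophil samples came from 4 cattle, animals 25, 26, 32 and 34, and the liver samples from 3 others, animals 58, 61 and 66. Each animal gave a sample on day 7 after oral β-cryptoxanthin at 0.2 mg/kg body weight, given on day 0 (a carotenoid, labelled β-CRX), and a sample on day 0. The groups were therefore neutrophils of day 7 (n = 4) and of day 0 (n = 4), and liver of day 7 (n = 3) and of day 0 (n = 3). All 7 animals received the agent, the cattle were heifers or steers with no age given, and untreated animals were not analysed here.

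As background, a resting B cell carries the antigen receptor, an immunoglobulin held in the membrane together with the signalling chains CD79A and CD79B, and the receptor CD40, through which helper T cells stimulate it. SPIB is an ETS family transcription factor of B cells and plasmacytoid dendritic cells. When a B cell becomes a plasma cell, the transcription factor XBP1 expands the secretory pathway, and JCHAIN, the joining chain, links immunoglobulin M and A units into polymers. XBP1 works in many other secretory cells, hepatocytes among them, and is not a mark of B lineage cells by itself.

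Each of the 5 genes was read by 1 probe of 60 bases printed once per array. Bases 31 to 60 of each probe are shown, the stretch that holds the polyadenylation signal letters found in 2 of them, and those letters are in capitals.
JCHAIN: ttatgtactccaaaatatgtattctctagc
CD40: aggccctgcaccctatggctgaaaggcagg
SPIB: gtcatgtctgaaaacaccattgtcaggttt
XBP1: aactacctgtgcaATTAAAaagtacaatgc
CD79A: tagtgatAATAAAtccttcccaacggcaaa
The probe for XBP1 holds ATTAAA, which 4.02% of all 15011 probes hold, and that for CD79A holds AATAAA, which 11.3% hold, searched on the printed strand alone. G and C make up 30% of the bases of the JCHAIN probe, below the 35% that marks the 5th percentile of all probes, and 35% to 55% of the other members' probes. The probes for XBP1 and CD79A carry those names in the array's own annotation. JCHAIN stands there as IGJ and CD40 as TNFRSF5, older names of the same genes. The SPIB probe is an expressed sequence tag described only as similar to human SPIB, so its identity is less certain than that of the rest.

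The labels of tissue were checked with marker genes. All 21 neutrophil markers on the array were well above background on all 8 neutrophil arrays, and all 16 hepatocyte markers on all 6 liver arrays. Of the hepatocyte markers, 3 (APOA1, APOA2 and ASS1) were well above background on all 8 neutrophil arrays and 8 on none of them. Of the neutrophil markers, 13 were well above background on all 6 liver arrays and 6 on none. The share of spots well above background, which stands in for depth here, was 57.1% to 71.6% on neutrophil arrays and 62.7% to 76.7% on liver arrays. The day 7 neutrophil array of animal 34 stood apart, with the lowest share, 57.1%, and a median processed signal of 48.2, against 100.2 to 162.9 on the other day 7 neutrophil arrays. The members' neutrophil changes are therefore given with and without that animal, and those of other genes where leaving it out moves them by more than 1.5 times. All neutrophil arrays lay on 1 slide and all liver arrays on another, and within each slide the day 0 arrays filled the first array row and the day 7 arrays the second. Tissue cannot be told apart from slide, nor day from array position.

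All levels below are log2 signals relative to the 75th percentile of the same array, so that 0 means a signal equal to that percentile. They compare arrays for 1 probe and do not rank 1 gene against another. In these bulk samples a change in the number of cells of a type and a change in RNA per cell cannot be told apart.

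JCHAIN was higher on day 7 in the neutrophil samples of all 4 animals, by 2.95-fold on average. Its level on day 7 was 1.89, 0.56, 0.54 and 2.54 in animals 25, 26, 32 and 34. On day 0 it was -0.24, -0.79, -0.44 and 0.76 in the same animals. The day groups overlapped, because the day 0 level of animal 34 was above the day 7 levels of animals 26 and 32. Within the animals the changes were 2.12, 1.35, 0.99 and 1.78, a mean of 1.56 ± 0.50 (SD, n = 4). Without animal 34 the mean change was 1.49 ± 0.58 (SD, n = 3). The change of JCHAIN lay at the 99.8th percentile of the mean changes of the 9449 probes tested in neutrophils, whose median was -0.07. Those of CD40, XBP1, CD79A and SPIB lay at percentiles 88.0, 79.5, 79.1 and 59.9. Because this contrast had a part in the choice of the members, nothing is read from these ranks.

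XBP1 was also higher on day 7 in all 4 neutrophil pairs, but by little. Its level on day 7 was 1.73, 1.41, 1.25 and 2.17 in animals 25, 26, 32 and 34, against 1.28, 1.13, 1.17 and 1.41 on day 0. The changes were 0.44, 0.28, 0.08 and 0.76, a mean of 0.39 ± 0.29 (SD, n = 4), and 0.27 ± 0.18 (SD, n = 3) without animal 34. The 1.31-fold mean difference was thus little larger than the spread between animals, and the day groups overlapped. The single probe does not report which splice form of XBP1 was present.

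CD79A, the receptor's signalling chain, had levels of 0.78, 1.08, 1.13 and 0.64 on day 7, against 0.57, 0.35, 0.48 and 0.71 on day 0. It was higher on day 7 in animals 25, 26 and 32, by 0.21, 0.73 and 0.65, and near its day 0 level in animal 34, at -0.06. The mean change was 0.38 ± 0.37 (SD, n = 4), and 0.53 ± 0.28 (SD, n = 3) without animal 34.

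CD40 showed the same division among the animals. Its level on day 7 was -2.20, -2.30, -1.87 and -3.36 in animals 25, 26, 32 and 34, against -2.90, -3.62, -3.17 and -2.56 on day 0. Animal 34 had the highest level of the 4 on day 0 and the lowest on day 7. The changes were 0.70, 1.33, 1.30 and -0.80, with a mean of 0.63 ± 0.998 (SD, n = 4), smaller than its spread. Without animal 34 the mean was 1.11 ± 0.35 (SD, n = 3), so that 1 animal decides the size of the CD40 difference.

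SPIB depended on animal 34 even more. Its level on day 7 was -2.85, -2.27, -1.92 and -5.12, and on day 0 it was -3.35, -3.25, -3.30 and -2.49. The level of -5.12 was not well above background and lies under -4.41, the lowest level of a probe well above background on that array. The changes were 0.50, 0.99 and 1.38 in animals 25, 26 and 32, against -2.63 in animal 34. Their mean was 0.06 ± 1.83 (SD, n = 4), and 0.96 ± 0.44 (SD, n = 3) without animal 34.

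**Figure D1:**
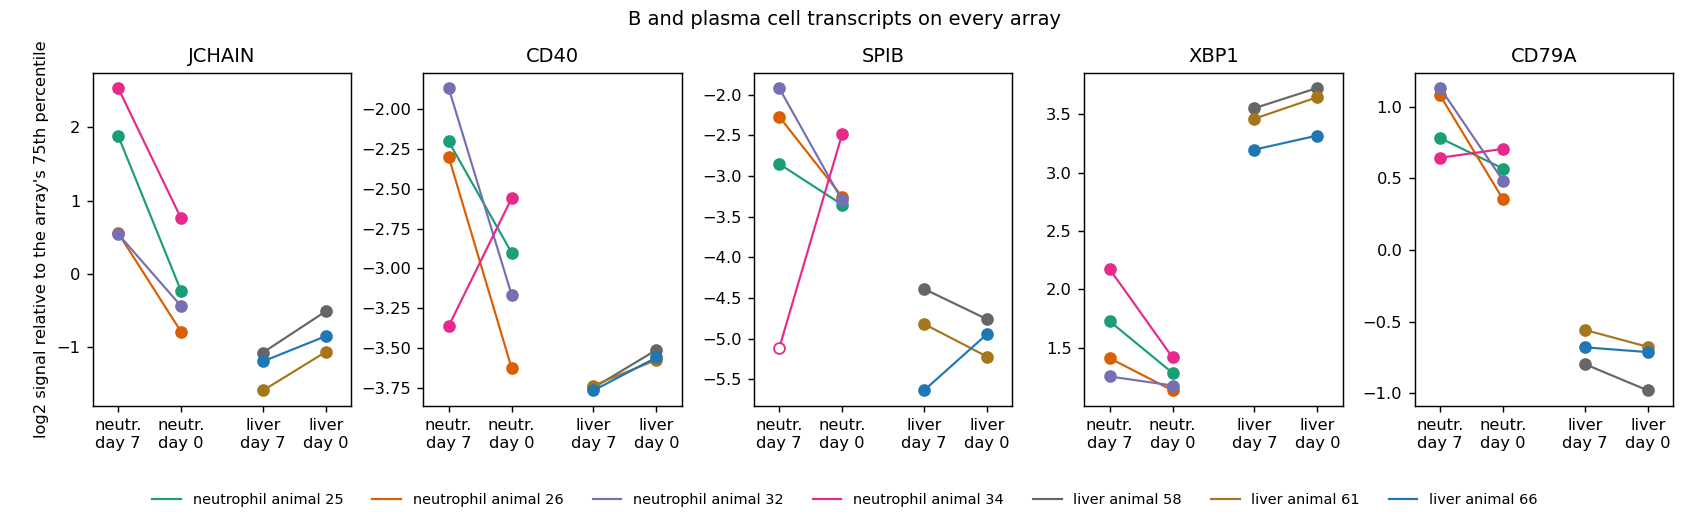
Log2 signal relative to the array's 75th percentile (vertical axis, with its own range in each panel) of the 5 transcripts on every array, with day 7 left of day 0 for neutrophils and for liver. Lines join the samples of 1 animal, and the open point is not well above background. JCHAIN and XBP1 lines are higher on day 7 in all 4 neutrophil animals, and the animal 34 lines of CD40 and SPIB run the other way.

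The 5 transcripts did not share 1 pattern across the animals. JCHAIN and XBP1 were higher on day 7 in 4 of 4 animals, and CD40, SPIB and CD79A in 3 of 4. Of all probes tested in neutrophils, 11.3% were higher on day 7 in every animal and 4.89% had every day 7 array above every day 0 array. The day groups of 0 of the 5 members lay apart, against 9.41% of all probes in either direction. Without animal 34, 5 of 5 members were higher in every animal, where 16.7% of all probes were. The median of the members' mean changes was 0.39, and 0.96 without animal 34. Since this contrast chose the members, nothing is read from those shares. By limma, 0 of 9449 probes passed an adjusted p of 0.05 in neutrophils (0%), and 1268 (13.4%) had an unadjusted p under 0.05.

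In liver the question was whether the same transcripts moved between the days in a tissue that did not select them for movement. By limma, 0 of the 5 passed the threshold, against 3.98% of the 10933 probes tested there (435 probes, 292 higher and 143 lower on day 7). At an unadjusted p under 0.05 the count was 1 of 5, JCHAIN, against 17.9% of all probes. The median change of all probes in liver was -0.04 and that of the members -0.16. JCHAIN, CD40 and XBP1 were lower on day 7 in 3 of 3 animals, where 22.8% of all probes were, and CD79A was higher in 3 of 3, where 17.7% were.

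JCHAIN came nearest to the threshold in liver. Its level was -1.08, -1.59 and -1.20 on day 7 in animals 58, 61 and 66, against -0.51, -1.07 and -0.85 on day 0. The day 7 levels lay just under the day 0 levels, with -1.08 against -1.07 at the nearest point, so the groups did not overlap, as for 15.4% of all probes. Within the animals the differences were -0.57, -0.53 and -0.35. The mean change was -0.48 ± 0.10 (SE of the limma fit, n = 3, 95% interval -0.76 to -0.20, adjusted p = 0.0993), the opposite direction to that in neutrophils.

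CD40 had narrow groups in liver, -3.75, -3.74 and -3.77 on day 7, against -3.51, -3.57 and -3.56 on day 0. These did not overlap either, as for 15.4% of all probes. The difference of -0.20 ± 0.10 (SE, 95% interval -0.45 to 0.05) had an adjusted p of 0.378 by limma. XBP1, at 3.55, 3.46 and 3.20 on day 7 against 3.73, 3.65 and 3.32 on day 0, differed by -0.16 ± 0.10 (SE, 95% interval -0.41 to 0.09, adjusted p = 0.483 by limma). CD79A, at -0.80, -0.56 and -0.68 on day 7 against -0.98, -0.68 and -0.71 on day 0, had a difference of 0.11 ± 0.10 (SE, 95% interval -0.15 to 0.37, adjusted p = 0.633 by limma). SPIB, at -4.39, -4.82 and -5.64 on day 7 against -4.76, -5.22 and -4.95 on day 0, was higher in 2 animals and lower in animal 66. Its mean difference was 0.03 ± 0.25 (SE, adjusted p = 0.971 by limma), with a 95% interval of -0.64 to 0.70. The probes for JCHAIN, CD40 and XBP1 lie at spot rows 143, 133 and 155, and those for CD79A and SPIB at rows 96 and 72. With the trend along the rows removed, JCHAIN, CD40 and XBP1 were at -0.36, -0.11 and -0.03 (limma adjusted p = 0.232, 0.669 and 0.912). CD79A and SPIB were then at 0.14 and 0.03 (limma adjusted p = 0.625 and 0.963).

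**Figure D2:**
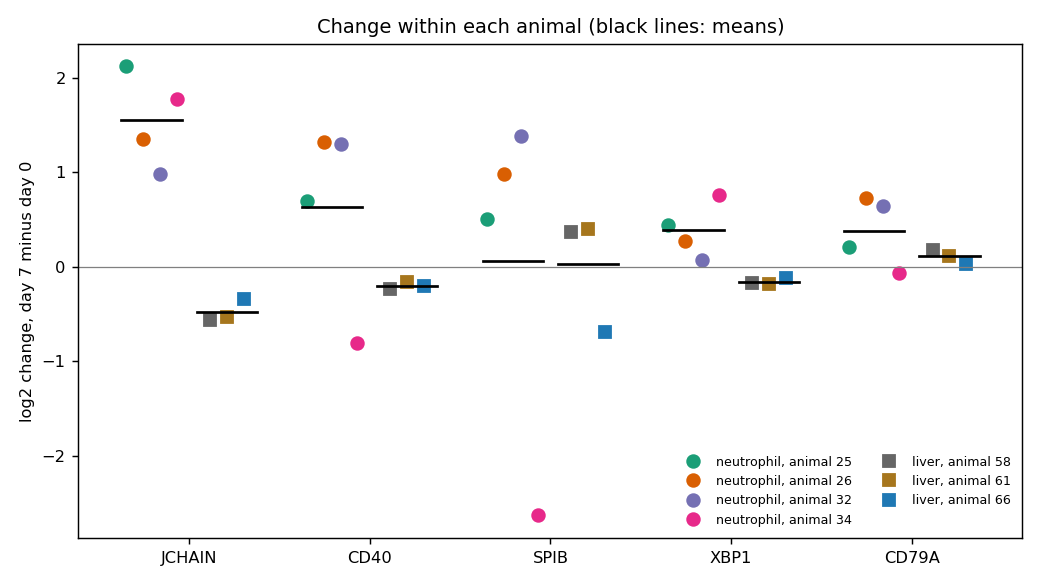
Log2 change, day 7 minus day 0, of each transcript within each animal, with circles for neutrophils, squares for liver and black lines for the means. JCHAIN and XBP1 lie above 0 in all 4 neutrophil animals and below 0 in all 3 liver animals, and SPIB spans -2.63 to 1.38 in neutrophils.

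The members differed from each other in how their levels compared between the 2 tissues. On day 7, JCHAIN averaged 1.38 ± 0.996 in neutrophils (SD, n = 4) and -1.29 ± 0.27 in liver (SD, n = 3), a difference of 2.67. On day 0 it averaged -0.18 ± 0.66 in neutrophils and -0.81 ± 0.28 in liver, and the tissues overlapped. From high to low, the order of JCHAIN was neutrophil day 7, neutrophil day 0, liver day 0 and liver day 7, and the 2 liver groups were the only neighbours in that order without overlap.

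CD79A was 1.59 higher in neutrophil samples than in liver on day 7 and 1.32 higher on day 0, with no overlap on either day. CD40 was 1.32 higher in neutrophil samples on day 7, without overlap, and 0.48 higher on day 0, where the tissues overlapped. SPIB was 1.88 higher in neutrophil samples on day 0 without overlap, and 1.91 higher on day 7, where the day 7 level of animal 34 lay among the liver values. XBP1 stood the other way. On day 7 it averaged 1.64 ± 0.41 in neutrophils (SD, n = 4) and 3.40 ± 0.18 in liver (SD, n = 3), a difference of -1.76. On day 0 the difference was -2.31, and the tissues overlapped on neither day. On both days the mean level was thus higher in neutrophil samples for 4 of the 5 and lower for XBP1. These tissue differences are descriptions, in different animals on different slides, and the levels had a part in the choice of the members. The share of all probes that separate the tissues is not given here, so nothing particular to the members is read from them.

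Other genes of the B lineage gave a mixed picture in the same neutrophil samples. Of 22 other B cell genes listed, 6 were on the array under a name and 5 passed the filter on dim probes. The mean change was above 0 for 4 of those 5, with a median of 1.001 (1.09 without animal 34), where 44.6% of all probes had a mean change above 0 and the median was -0.07. By limma, 0 of the 5 passed the test, and 2, BLK and BLNK, had an unadjusted p under 0.05. BLK, a Src family kinase of the B cell receptor pathway, was higher in 4 of 4 animals, by 0.90, 1.43, 0.94 and 0.74 in animals 25, 26, 32 and 34 (mean 1.001 ± 0.25, SE, adjusted p = 0.300 by limma). BLNK, the adaptor that links the receptor to its downstream enzymes, was higher by 0.43, 2.12, 1.26 and 1.33 (mean 1.29 ± 0.32, SE, adjusted p = 0.300 by limma).

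The 3 remaining B cell genes of that list are given although they were picked after their values were seen. MS4A1, which encodes the B cell surface protein CD20, was higher in 3 animals, by 0.98, 1.77 and 1.48, and at -1.25 in animal 34 (mean 0.74, and 1.41 without that animal). POU2AF1, a coactivator of immunoglobulin gene transcription, differed by 0.08, -0.28, 1.45 and 3.26, so that its mean of 1.13 was 0.42 without animal 34. CR2, the complement receptor CD21, was lower in 4 of 4 animals, with changes of -0.45, -0.36, -0.19 and -1.69 (mean -0.67, and -0.34 without animal 34). None of the 3 passed the test, with limma adjusted p of 0.505, 0.421 and 0.396. Animal 34 therefore stood on opposite sides for these genes, high for POU2AF1 and low for MS4A1, CR2, CD40 and SPIB.

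The other plasma cell genes lay on both sides of 0. Of 18 others listed, 7 were on the array under a name and 6 passed the filter, 2 of them with a mean change above 0, and 0 passed the test by limma, 0 also at an unadjusted p under 0.05. The median was -0.25, and 0.25 without animal 34. ELL2, an elongation factor that promotes the secreted form of immunoglobulin messenger RNA, differed by -0.55 ± 0.33 (SE, adjusted p = 0.459 by limma), and by -0.27 without animal 34. CREB3L2, a membrane-bound transcription factor of secretory cells, differed by -0.53 ± 0.44 (SE, adjusted p = 0.581 by limma), and by 0.01 without animal 34. These 2 had the smallest p of the list. The 2 with a mean above 0, named after their values were seen, were the syndecan gene SDC1 (0.21, and 0.62 without animal 34) and DERL3 (0.26, and 0.49), with limma adjusted p of 0.823 and 0.666.

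Immunoglobulin probes, a set picked by their descriptions after the earlier results were known, are the nearest companions of JCHAIN in function. IGHM, the heavy chain of immunoglobulin M, was at 3.29, 2.86, 2.65 and -0.95 on day 7 in animals 25, 26, 32 and 34, against 2.27, 1.75, 2.68 and 2.48 on day 0. It was higher on day 7 in animals 25 and 26, level in animal 32, and lower in animal 34, with a change of -3.43, in the animal whose JCHAIN level was highest. Its mean change was -0.33, and 0.70 without animal 34. The lambda light chain constant region probe was at 1.02, 0.21, -0.07 and -0.46 on day 7, against -0.89, -1.60 and -1.58 on day 0 in the first 3 animals and 0.01 in animal 34. It was higher on day 7 in 3 of 4 animals, by 1.51 to 1.90, and at -0.48 in animal 34. A light chain variable region probe was higher in 2 of 4 animals, with changes of -2.77 to 0.39. In liver the lambda constant probe was lower on day 7 in 3 of 3 animals, with changes of -0.43, -0.54 and -0.57, as JCHAIN was. Of all probes tested there, 22.8% were lower in 3 of 3. The lambda probe lies at spot row 174 and JCHAIN at row 143. The part of the trend along the spot rows in this likeness was not tested. IGHM and the light chain variable region probe were not lower in 3 of 3. In liver IGHM changed by -0.03, -0.22 and 0.18, and the variable region probe by 0.21, -0.09 and 1.12. Of the 2 other light chain probes, one was well above background on 1 of the 8 neutrophil arrays and the other on 0.

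**Figure D3:**
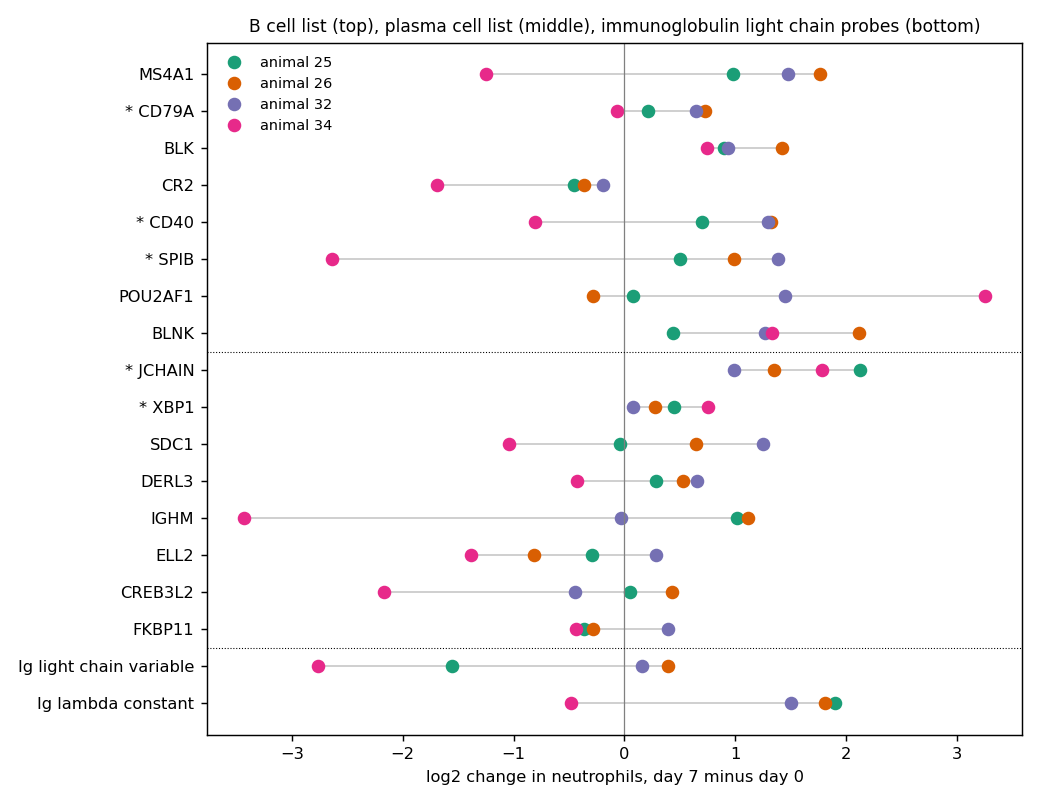
Log2 change in neutrophils, day 7 minus day 0, for the genes of the B cell list and the plasma cell list that passed the filter on dim probes and for 2 immunoglobulin light chain probes, 1 point per animal. Asterisks mark the 5 members, and animal 34 lies at the low end for 14 of the 18 probes and at the high end for 2, POU2AF1 and XBP1.

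The pathways in which the members act were measured with genes of their own. Of 14 genes of CD40 and B cell receptor signalling on the array, 12 passed the filter in neutrophils, 3 of them had a mean change above 0 and 0 passed the test by limma (1 at an unadjusted p under 0.05). TRAF6, a signal transducer downstream of CD40, was lower in 4 of 4 animals (-0.56 ± 0.24, SE, adjusted p = 0.372 by limma), as was CD81, a partner of the B cell coreceptor that many cells carry (-0.71 ± 0.33, SE, adjusted p = 0.396, and -0.34 without animal 34). TNFSF13B, the B cell survival factor BAFF, named after its values were seen, had the list's largest mean change and was higher in 4 of 4 animals, by 0.25, 0.91, 4.59 and 0.10 in animals 25, 26, 32 and 34. Its mean of 1.46 ± 0.73 (SE) did not pass the test either (adjusted p = 0.414 by limma), and animal 32 carried most of it. Of the 19 measured genes of the secretory pathway and unfolded protein response, which XBP1 controls in part, 10 had a mean change above 0. Of all probes 44.6% did. By limma 0 of the 19 passed the test, and 3 had an unadjusted p under 0.05, as 13.4% of all probes had. In every animal 5 of the 19 were higher and 1 lower, where 11.3% and 13.2% of all probes were. The chaperones HSP90B1 (0.96 ± 0.27, SE) and DNAJB11 (0.92 ± 0.26, SE) of the endoplasmic reticulum were higher in 4 of 4 animals, each with a limma adjusted p of 0.311.

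In liver, 2 of the 7 measured plasma cell genes other than the members passed the test by limma, both higher on day 7. Of all probes tested there, 3.98% passed, and 4 of the 7 genes had a mean change above 0. FKBP11, a folding enzyme of the secretory pathway, rose by 1.04 ± 0.13 (SE, adjusted p = 0.0292 by limma) and DERL3, a factor of endoplasmic reticulum degradation, by 0.63 ± 0.10 (SE, adjusted p = 0.0477). Both probes lie in the first 14 of the 192 spot rows, and with the trend along the rows removed FKBP11 was at 0.45 (adjusted p = 0.245) and DERL3 at -0.14 (adjusted p = 0.584). BLK and BLNK, the 2 B cell genes measured there, did not pass the test in liver, with adjusted p of 0.640 and 0.453 by limma, and MS4A1 and POU2AF1 were well above background on 0 of the 6 liver arrays. In the signalling list 1 of 12 genes was called, MAP3K14, a kinase downstream of CD40, which rose (1.103 ± 0.13, SE, adjusted p = 0.0440 by limma, with both days measured in 2 animals only). In the secretory list 1 of 19 was called, CANX, the chaperone calnexin, which fell by 2.16 on the log2 scale (SE 0.16, adjusted p = 0.0116 by limma, spot row 191). Of the hepatocyte list, 1 of 16 was called, FGB, a fibrinogen chain, which rose by 1.05 (SE 0.14, adjusted p = 0.0327 by limma, spot row 19). With the row trend removed none of MAP3K14, CANX and FGB passed, with adjusted p of 0.109, 0.0903 and 0.145. The other 8 lists had no call in liver by limma, with 13 of their genes at an unadjusted p under 0.05. Of all probes, 17.9% met that threshold. By list the counts were 6 of 14 measured neutrophil genes, 3 of 8 T cell, 1 of 9 cytotoxic and 1 of 8 monocyte genes. They were 1 of 6 MHC class II, 1 of 3 eosinophil, 0 of 2 B cell and 0 of 6 platelet genes.

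Summed levels of other cell type lists differed between the days in neutrophils, in 4 of 4 animals for some lists and not for others. The labels do not say how the neutrophils were isolated. The summed level of the 13 T cell genes, in multiples of the array's 75th percentile, spanned 27.8 to 37.7 on day 7 against 19.5 to 26.9 on day 0, higher on day 7 in 4 of 4 animals by 1.19 to 1.54 times. Sums of the 11 NK and cytotoxic cell genes spanned 18.9 to 99.5 on day 7 against 9.54 to 33.6 on day 0, higher in 4 of 4 by 1.44 to 3.04 times. The sum of the 6 B cell genes other than the members spanned 4.19 to 8.50 on day 7 against 1.59 to 4.398 on day 0. It was higher in 4 of 4 by 1.81 to 2.63 times. A sum is carried mostly by its brightest probe. That was CD247 for T cells (mean level 4.64 on day 7), GZMB for cytotoxic cells (5.09), BLK for B cells (2.48) and FKBP11 for plasma cells (5.88). Of all 9 B cell genes on the array 6 were well above background on all 8 neutrophil arrays, CR2 on 6 and CXCR5 on 2. The plasma cell sum without the members spanned 54.8 to 88.7 on day 7 against 69.7 to 95.7 on day 0, higher in 1 of 4. The sum of the 21 neutrophil genes spanned 798 to 1611 on day 7 against 998 to 1172 on day 0, higher in 2 of 4. The monocyte and dendritic cell sum was higher in 2 of 4 animals (0.67 to 1.55 times), the MHC class II sum in 2 of 4 (0.35 to 1.59 times), the eosinophil and basophil sum in 1 of 4 (0.25 to 2.36 times), the platelet and erythroid sum in 1 of 4 (0.78 to 1.44 times) and the hepatocyte sum in 2 of 4 (0.29 to 1.38 times). The part of these shifts in the members' values was not tested.

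Single genes of those lists were less uniform than the sums. CD3G and CD3E, chains of the T cell receptor complex, were higher on day 7 in 4 of 4 animals, with mean changes of 1.06 and 0.77 (limma adjusted p = 0.300 and 0.328). GZMB and GNLY, which encode cytotoxic granule proteins, were higher in 4 of 4, with 1.31 and 0.88 (limma adjusted p = 0.298 and 0.325). In the T cell list 7 of 9 measured genes had a mean change above 0, with a median of 0.40 (0.82 without animal 34). Of the 9, 3 were higher in every animal, and the median of the list was -0.56 in animal 34. The 2 with a mean below 0, named after their values were seen, were the T cell kinase gene LCK (-0.45, and 0.75 without animal 34) and the chemokine receptor gene CCR7 (-0.08, and 0.72). In the cytotoxic list 5 of 7 had a mean above 0, with a median of 0.33 (0.58), and NKG7 (-0.03, and 0.60 without animal 34) and NCR3 (-0.19) lay below 0. Genes for MHC class II, which B cells share with other antigen presenting cells, had a mean change above 0 in 4 of 6, with a median of 0.24 (0.66). BOLA-DMB (0.50, limma adjusted p = 0.450) and BOLA-DRB3 (0.58, 0.477) had the smallest p there. Among monocyte and dendritic cell genes 5 of 9 were above 0, with a median of 0.38 (0.62), and the 2 genes with the smallest p lay on opposite sides, VCAN at 0.79 (limma adjusted p = 0.374) and C1QA at -0.54 (0.442, and -0.31 without animal 34).

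The neutrophil list lay near the rest of the array. Of 21 measured neutrophil genes 7 had a mean change above 0, with a median of -0.07, equal to that of all probes. By animal the median of the list was -0.45, -0.33, 0.63 and -0.005 in animals 25, 26, 32 and 34. Its 2 genes with the smallest p were both lower on day 7. ITGAM, the integrin chain CD11b, was lower in 4 of 4 animals (-1.24, limma adjusted p = 0.304) and C5AR1, the receptor for complement C5a, in 3 of 4 (-1.32, adjusted p = 0.422, and -0.37 without animal 34). Of the eosinophil genes CCR3, the eotaxin receptor, was lower in 4 of 4 (-1.55, limma adjusted p = 0.298), and ALOX15 in 3 of 4 (-0.70, 0.536, and -1.36 without animal 34). In the platelet and erythroid list 1 of 4 and in the hepatocyte list 0 of 4 measured genes had a mean change above 0. No gene of the 12 lists other than the members, which were not tested, passed the test in neutrophils by limma. Of the list genes 13 had an unadjusted p under 0.05 by limma, a threshold that 13.4% of all probes met. By list these were 3 of 9 measured T cell genes, 3 of 19 secretory, 2 of 5 B cell and 2 of 7 cytotoxic genes. They were 1 of 12 signalling, 1 of 21 neutrophil and 1 of 2 eosinophil genes. The count was 0 of 6 plasma cell, 0 of 9 monocyte, 0 of 6 MHC class II, 0 of 4 platelet and 0 of 4 hepatocyte genes.

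**Figure D4:**
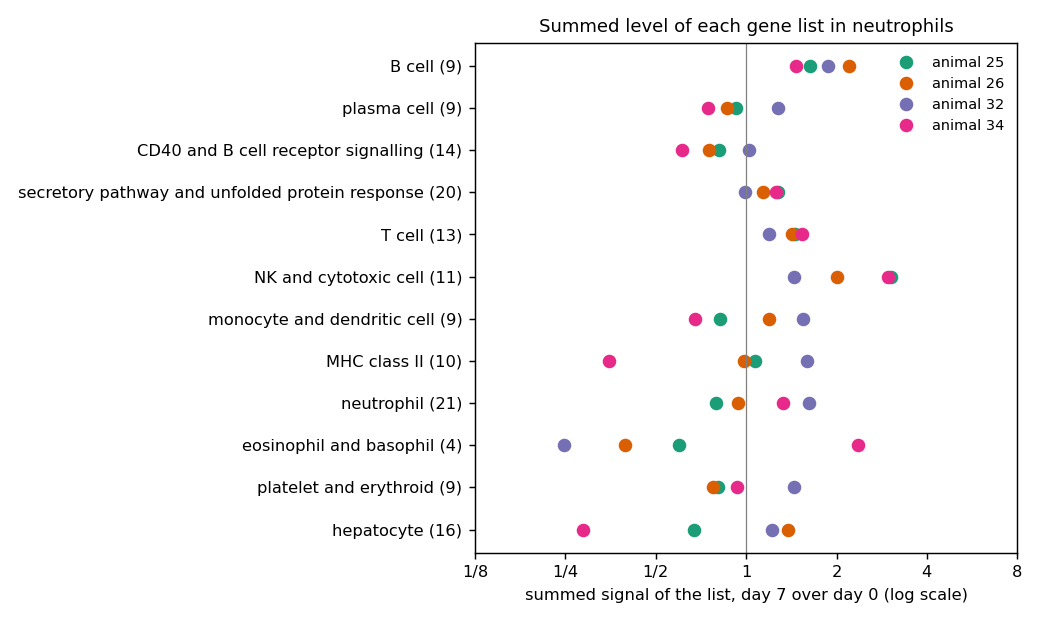
Summed signal of each gene list in neutrophils on day 7 divided by that on day 0 (horizontal axis, log scale), 1 point per animal, with the number of genes on the array in brackets. Members are included here. The B cell, T cell and NK lists lie above 1 in all 4 animals, whereas the plasma cell list does so in 1. These sums are carried mostly by the brightest probe of each list, BLK, CD247, GZMB and FKBP11.

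The genes whose pattern over the 8 neutrophil arrays lay nearest to each member were sought among 4103 named probes well above background on all 8, by the root mean square difference between centred log2 levels. This could not be done for SPIB, which was well above background on 7 of 8. Nearest to JCHAIN was GZMB at 0.26, followed by CHN2, a GTPase-activating protein for Rac, at 0.31 and AQP3, a water and glycerol channel, at 0.34, where JCHAIN itself varied by 1.07 about its mean. GZMB differed between the days by 1.74, 1.15, 0.73 and 1.63 in animals 25, 26, 32 and 34, the same order of animals as JCHAIN. That order adds nothing further, because GZMB was picked for its nearness to JCHAIN on the same arrays. Nearest to CD40 (own variation 0.58) were LCAT, an enzyme of cholesterol esterification, at 0.13, ZNRD2 at 0.17 and CD2AP, an adaptor protein, at 0.21. Nearest to CD79A (own variation 0.26) were PTPRCAP, a protein associated with the phosphatase CD45, at 0.11, RTCB, an RNA ligase, at 0.13 and MRPL1, a mitochondrial ribosomal protein, at 0.14. For XBP1 (own variation 0.33) they were MTX1 at 0.087, ABT1 at 0.089 and ZC3H14 at 0.090. None of the nearest genes of 1 member was another member. With so few genes taken from 4103 probes, and a distance that depends on the size of the variation, this cannot show whether the members varied together.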

How the data were processed

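Neutrophil and liver RNA was hybridised to 14 custom bovine arrays in a single colour (Cy3), 1 per sample. The deposited intensities are processed signals with background already subtracted, made with Agilent Feature Extraction. The file headers give its version as 9.5.1.1, and the submitters' processing notes give 9.5. Uncorrected mean and background intensities, deposited beside them per the file headers, served 1 alternative. The deposited log2 table equals log2 of the processed signals minus a constant per array, 0.004 to 0.013 away from the 75th percentile, and served as another. Its columns correlate with those log2 signals at 1.0 and have medians of -3.55 to -2.69. No coordinates are printed, because no genome build could be read from the labels or headers.

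Control spots were left out, as were 0 to 18 outlier spots per array, while 0 to 3 saturated spots stayed in. Values are log2 processed signals from which the 75th percentile of the array was subtracted, with repeat spots of a probe averaged. Of 15011 probes, 6929 had 1 gene symbol, 12 several and 8070 none. Symbols came from accessions (2495 probes), gene numbers (1976), symbols or synonyms (1476) and a stated similarity to a human gene (982), through the RefSeq genes of assembly ARS-UCD2.0. The rule for the members, applied letter for letter, matched XBP1 and CD79A, and the other 3 were found through accession, synonym and similarity. Probes were tested where well above background on all arrays of 1 day or both (9449 in neutrophils, 10933 in liver). Day 7 was compared with day 0 per tissue with limma 3.58.1 (R 4.3.3), with the animal as a block and two-sided Benjamini-Hochberg adjusted p under 0.05. Pairing comes from the labels, which name 1 animal on both days. Paired deviations from the group means correlated at 0.61, 0.36, 0.03 and 0.24 in animals 25, 26, 32 and 34 and at 0.65, 0.31 and 0.61 in animals 58, 61 and 66. The number of arrays limits the precision.

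On simulated data with 100 probes changed at each size, the neutrophil fit found 24 of those changed by 1.5 and 80 of those changed by 3.0 on the log2 scale (3 false calls), and the liver fit 72 and 95 (12 false calls). Trends along spot rows used lowess (span 0.2, statsmodels 0.14.6). From each gene list up to 4 genes past the threshold were named per tissue, or else the 2 with the smallest p, and the brightest probe stood for a gene. The members and the lists were chosen with earlier results of these data known.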

Additional observations from a re-analysis of the deposited data

Results flagged for a closer look

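SPIB stood out in neutrophils on day 0, where animal 34 had a level of -2.49 and the other 3 animals -3.35 to -3.25. The same animal had the lowest SPIB level on day 7. Among the summed lists in neutrophils on day 7, animal 34 stood far above the other 3 in the eosinophil and basophil list, at 127.7 multiples of the 75th percentile, and animal 32 in the platelet and erythroid list, at 17.8. Of 39 groups of 4 examined, 3 gave such a value, and chance alone gives about 1 in 20. The eosinophil and basophil sum was 136.2 in animal 32 on day 0, above the flagged 127.7. Its brightest probe was ALOX15, with a mean level of 5.36 on day 7 and 6.06 on day 0.

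JCHAIN was higher on day 7 in 4 of 4 neutrophil animals and lower in 3 of 3 liver animals, where it did not pass the test (limma adjusted p = 0.0993, and 0.232 with the row trend removed). The neutrophil change minus the liver change was 2.04. XBP1 had the same signs, with a difference of 0.55, but its liver change of -0.16 (limma adjusted p = 0.483) was -0.03 with the row trend removed (adjusted p = 0.912). These differences were not tested, because the neutrophil contrast had a part in the choice of the members, and tissue cannot be told apart from slide and animal.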

How the results depend on the processing

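In neutrophils 0 probes passed the threshold under the main setting and all 11 alternatives, and JCHAIN, CD40, XBP1 and CD79A kept a mean change above 0 in all of theirs. The members' median of 0.39 was 0.40 to 0.96 with 1 animal left out (0.96 without animal 34) and 0.39 to 0.51 otherwise. SPIB, with a mean of 0.06, was -0.38 to 0.96 with 1 animal left out and -0.01 to 0.17 otherwise. In liver the 435 probes past the threshold were 0 with no filter on dim probes (1852 at an unadjusted p under 0.05), 210 with no replicate block, 33 with the row trend removed, and 0 to 164 with 1 animal left out (0, 98 and 164 without animals 58, 61 and 66). The 2 other plasma cell genes called in liver were 1 with quantile normalization, with normexp and quantile normalization (offset 50), or with probes well above background on both days. They were 0 with no filter, no replicate block or the row trend removed, and 0 to 0 with 1 animal left out. No member was called in liver under any alternative, and the adjusted p of JCHAIN ranged from 0.0514 (normexp and quantile) to 0.521. The liver median of the members, -0.16, was -0.088 with normexp and quantile, -0.031 with the row trend removed, and -0.18 to -0.15 with 1 animal left out. The liver change of SPIB, 0.03, turned to -0.15 without animal 58 and -0.16 without animal 61, and was 0.39 at the other end. The causes were not tested. Under 2 scalings over all arrays, chosen after seeing the data, every member kept the direction of its day 0 neutrophil minus liver level, with 0.99 in place of 1.88 for SPIB under normexp. The overlap of the tissues depended on the scaling for CD40 and SPIB. CD40 did not overlap on day 0 under either of these scalings, and SPIB did not overlap on day 7 under normexp. Signal over background limits SPIB, which was not well above background on 1 neutrophil array.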
